A study of Mus musculus with 6 samples.

Results

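The enzymes described here detoxify peroxides, superoxide and reactive electrophiles: the glutathione transferases, the glutathione peroxidases other than GPX4, the peroxiredoxins, the superoxide dismutases, catalase, and the thioredoxins, glutaredoxins and glutathione synthetase that serve them. The rule that picks them uses gene symbols and no measured value, though it was written with earlier results of these data known, and 40 of the 39234 genes in the table belonged to them. The measurements come from RNA sequencing of HK-2 cells, an immortalized line of human proximal tubule epithelium, in 3 control libraries and 3 libraries with overexpression of USAG-1, a secreted BMP antagonist encoded by SOSTDC1. Overexpression in the study's HK-2 cells was by transient plasmid transfection, so each library averages over cells that took up the plasmid and cells that did not. The labels call the controls only Cont, and whether those 3 cultures received an empty vector, and how long after transfection RNA was taken, is not given in the sources used here. All 6 libraries carry the genotype WT and no hypoxia or other treatment in the labels, and nothing states that the 3 libraries of a group are separate cultures, so the p-values below measure the spread between these libraries, which may be technical. The organism is given as mouse in the labels, although HK-2 is a human line and the table carries human Ensembl identifiers, and the study did not authenticate the line by STR typing. Poly(A) RNA, strand-specific libraries and paired reads of 150 bases are described in one part of the labels, and removal of ribosomal RNA and another sequencer in another part.

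Superoxide, released mainly by the respiratory chain and by oxidases, is turned into hydrogen peroxide by the superoxide dismutases. Catalase, glutathione peroxidases and peroxiredoxins then reduce the peroxide, the peroxidases at the expense of glutathione and most peroxiredoxins at the expense of thioredoxin. Glutathione transferases couple glutathione to electrophiles such as drugs and products of lipid peroxidation, and the proximal tubule, rich in mitochondria and in glutathione turnover, is a main site of this chemistry in the kidney.

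Library totals were 41236194 to 48699471 counted reads in control and 42782931 to 45448720 in USAG-1 overexpression, and 3 counts, the limit that a count of 0 allows, corresponded to 0.0608 to 0.0719 CPM (the count scaled to library size, with edgeR's TMM factors for levels; the limit covers counting error only). SOSTDC1 stood at 1.41 to 1.89 CPM in control and 89.5 to 110 CPM in overexpression, in the direction of the labels. Among the tubule markers, KRT8, VIM and PAX8 were abundant in both groups, while LRP2 had no count in any library and CUBN, AQP1 and PAX2 did not exceed 15 counts. Several things moved with the groups besides SOSTDC1. For scale, edgeR called 8.95% of all genes tested higher in overexpression and 6.91% lower, at an adjusted p under 0.05. Of 11 tested tubule markers, 3 were higher in overexpression, PAX8 (0.26, edgeR adjusted p = 0.0114), CDH2 (0.28, adjusted p = 0.0263) and GGT1 (0.55, adjusted p = 0.0208), and none was lower in edgeR, DESeq2 or limma-voom (1 at an unadjusted p under 0.05). Of 19 T cell transcripts, 18 were lower in overexpression (summed 121 to 149 CPM against 15.7 to 19.1 CPM), and mitochondrially encoded transcripts held 4.80% to 5.59% of control counts and 1.504% to 1.550% of overexpression counts. The part of any of these in the results below was not tested. None of the B cell, platelet and erythroid markers was called by edgeR, DESeq2 or limma-voom or had an unadjusted p under 0.05, and of 9 myeloid markers edgeR called 1, LYZ, lower. Platelet and erythroid markers differed widely between libraries of the same group, summing to 8.19 to 111 CPM in control and 8.84 to 77.9 CPM in overexpression. In bulk RNA, fewer cells of a type and less RNA per cell cannot be told apart.

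One control library stood apart from its group and bears on most values below. Control replicate 3 differed from the other 2 control libraries by 42.3 to 42.7 chi-square units per degree of freedom over all genes, against 6.52 to 8.35 for the other pairs within a group. It was higher than the mean of control replicates 1 and 2 in 28 of the 32 enzyme genes that could be tested, with a median of 0.27 on the log2 scale, while the median over all genes tested was -0.01 and 48.8% of those genes were above 0. Of the 32, 20 (62.5%) had their highest level of all 6 libraries in it, against 25.5% of all genes tested. Summed over the 40 genes, the libraries held 3626, 3689 and 4617 CPM in control and 3611, 3647 and 3682 CPM in overexpression. Control replicates 1 and 2 thus lay beside the overexpression libraries, and the group means (3977 ± 555 against 3646 ± 35.4 CPM, SD, n = 3) were set apart by control replicate 3.

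Of the 40 genes, 32 passed the filter on low counts and were tested with edgeR's quasi-likelihood test, and p-values were adjusted (Benjamini-Hochberg) over all 18188 tested genes. A gene was called at an adjusted p under 0.05, whatever its fold change. USAG-1 overexpression went with a higher level of extracellular superoxide dismutase (SOD3), catalase (CAT), the membrane-bound transferase MGST1 and the endoplasmic reticulum peroxidase GPX8, and with a lower level of mitochondrial superoxide dismutase (SOD2). These 5 genes are 15.6% of the 32 tested, and 15.9% of all genes tested were called. In the single directions, 4 of 32 were higher and 1 lower, against 8.95% and 6.91% of all genes. The share of called genes was thus near that of all genes, and the median log2 fold change of the 32 was -0.07 beside -0.02 over all genes tested. None of the 5 changed by as much as 1 log2 unit. In 10 of the 32 (31.2%) no overexpression library fell within the control range or the reverse, beside 37.6% of all genes tested, with GPX8, MGST1, GSTCD, CAT, SOD3 and GSS higher and GPX1, GSTK1, PRDX5 and SOD2 lower in overexpression.

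**Figure D1:**
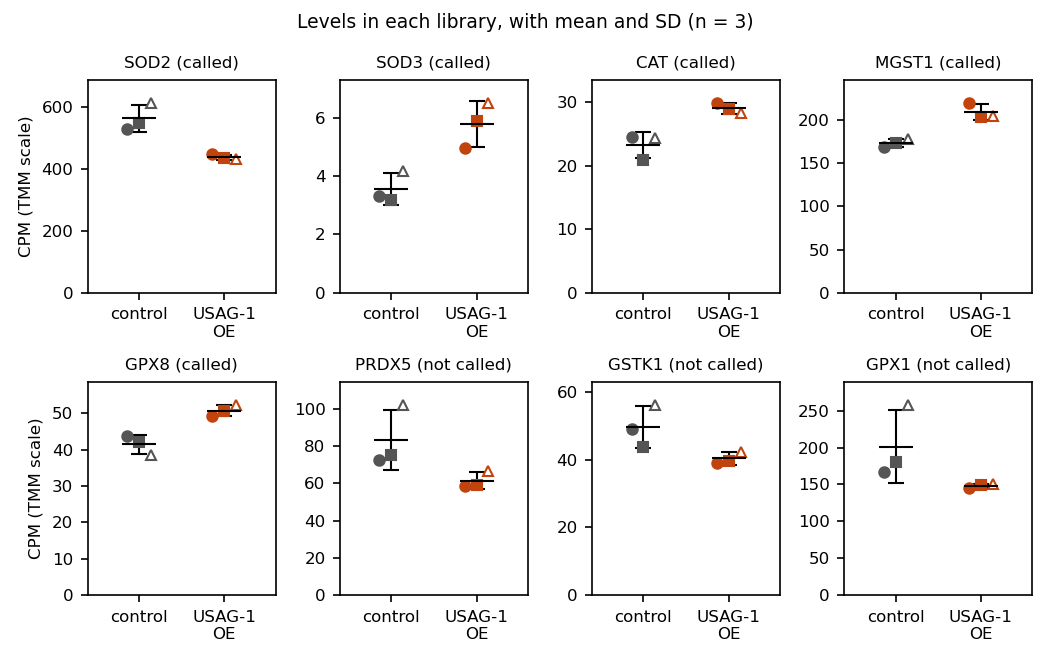
Levels in CPM (linear axes from 0) of the 5 called genes and 3 uncalled genes in each of the 6 libraries, with circles, squares and open triangles for replicates 1, 2 and 3, a horizontal line for the mean and bars for the SD. The 8 genes were chosen after the results were seen and are all among the 10 enzyme genes whose groups do not overlap, beside 37.6% of all genes tested. Control replicate 3 is the highest control library in all but CAT and GPX8.

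Of the 4 tested genes for superoxide dismutases and catalase, 3 were called, 2 higher and 1 lower. Over all genes tested, 15.9% were called, and a share of 4 genes rests on very few. SOD2, the manganese enzyme of the mitochondrial matrix, had 529, 547 and 613 CPM in control and 447, 434 and 430 CPM in overexpression. All 3 overexpression libraries lay below all 3 controls, and the overexpression libraries were close together. SOD2 fell by 0.37 on the log2 scale (SE 0.07, edgeR adjusted p = 0.00882), or by 22.4%, with a 95% interval from -30.1% to -13.8%. Without control replicate 3 it fell by 0.29 (adjusted p = 0.000243). Without overexpression replicate 2 or 3 the value was -0.36 or -0.35 and missed the threshold, with adjusted p = 0.0558 and 0.0556. SOD2 (ENSG00000112096, minus strand, chr6:159669069-159727353, build hg38) shares 1769 bases with WTAP on the opposite strand, which held 25.7% as many counts, and how the authors assigned such reads is not given in the sources used here.

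SOD3, the copper and zinc enzyme that is secreted and binds the matrix outside the cell, was read far less deeply, with 138 to 178 counts in a control library and 228 to 281 in an overexpression library. Its levels were 3.31, 3.18 and 4.17 CPM in control and 4.97, 5.89 and 6.51 CPM in overexpression. Every overexpression library was above every control library, and the spread within overexpression, 0.777 CPM (SD), was wider than the control's 0.541 CPM. SOD3 rose by 0.70 on the log2 scale (SE 0.18, edgeR adjusted p = 0.0323), the largest change among the 5, with a 95% interval of 22.7% to 116% higher. The gene (ENSG00000109610, plus strand) lies at chr4:24789912-24799683. CAT (ENSG00000121691, plus strand, chr11:34438934-34472060) encodes the heme enzyme of peroxisomes that splits hydrogen peroxide without glutathione or thioredoxin. Its levels were 24.53, 20.93 and 24.36 CPM in control and 29.93, 28.97 and 28.25 CPM in overexpression, so the groups did not overlap. CAT rose by 0.32 (SE 0.08, edgeR adjusted p = 0.0367).

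SOD1, the copper and zinc dismutase of the cytosol, was the one gene of this group without a call. It had 159, 156 and 190 CPM in control and 157, 164 and 166 CPM in overexpression, with overlapping groups. The log2 fold change was -0.05 (95% interval from -0.24 to 0.13, or -15.5% to 9.80%), and its adjusted p was 0.707. Of the 3 dismutases, the mitochondrial one was therefore lower, the extracellular one higher and the cytosolic one without a detected difference. Differences between their fold changes were not tested.

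The transferases of the cytosol, which make up the alpha, mu, omega, pi, theta and zeta classes and the more distant GSTCD, had no call with edgeR, DESeq2 or limma-voom, and none had an unadjusted edgeR p under 0.05. Over all genes tested, edgeR called 15.9%, and 30.5% had an unadjusted p under 0.05. Whether so few genes differ from those shares was not tested. GSTP1, the pi class enzyme with the most reads of all transferases here (12179 to 18437 counts in a library), had 292, 319 and 432 CPM in control and 305, 297 and 289 CPM in overexpression. Control replicate 3 stood alone, and the other 5 libraries lay between 289 and 319 CPM. The log2 fold change was -0.23 (SE 0.13, edgeR adjusted p = 0.288) and became -0.03 (adjusted p = 0.613) without that library. GSTO1, an omega class enzyme that also reduces dehydroascorbate, had the same shape, at -0.22 with all libraries and -0.03 without control replicate 3. The rarer GSTO2 and GSTZ1, the zeta enzyme of tyrosine breakdown, stood at -0.26 and -0.39, with intervals that held 0 (from -0.82 to 0.29 and from -0.84 to 0.07). GSTCD was at 0.17, with 18.2 to 19.9 CPM in control and 20.0 to 22.7 CPM in overexpression (adjusted p = 0.235).

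Of the mu class, GSTM3 alone was read deeply. Its levels were 18.04, 16.98 and 21.11 CPM in control and 19.95, 14.31 and 20.18 CPM in overexpression, and its fold change was -0.04 (95% interval from -0.38 to 0.30). One overexpression library was below all controls while the other two lay inside their range. GSTM4 had 27 counts at most and a fold change of -0.75 with an interval from -1.86 to 0.36. GSTM1 had 10, 10 and 12 counts in control and 14, 0 and 0 in overexpression, levels at which no fold change is given, and it shares 21226 bases of the same strand with GSTM2. GSTA4, the alpha class enzyme that clears 4-hydroxynonenal, a product of lipid peroxidation, had 2.35, 1.95 and 2.23 CPM in control and 1.94, 2.20 and 2.27 CPM in overexpression. The groups overlapped, at -0.02 (95% interval from -0.46 to 0.41).

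Of the 4 transferases outside the cytosol, edgeR called 1 (25%), beside 15.9% of all genes tested. MGST1 (ENSG00000008394, plus strand, chr12:16347142-16589580), a membrane enzyme of the endoplasmic reticulum and outer mitochondrial membrane that is both transferase and lipid peroxidase, had 169, 173 and 178 CPM in control. In overexpression it had 220, 203 and 205 CPM, above every control. MGST1 rose by 0.27 (SE 0.06, edgeR adjusted p = 0.0156), or by 20.9% with a 95% interval of 10.4% to 32.3%. Control replicate 3 was 0.06 log2 units above the other controls here, and without that library MGST1 rose by 0.30 (adjusted p = 0.00114). Its relatives MGST2 and MGST3, also membrane enzymes, were not called, at -0.05 (95% interval from -0.35 to 0.25) and -0.16 (from -0.39 to 0.06). MGST2 overlaps H3P16 on the opposite strand, which held more counts (2678 against 2241). GSTK1, the kappa class transferase of mitochondria and peroxisomes, had 49.1, 43.6 and 56.1 CPM in control and 38.9, 39.7 and 42.4 CPM in overexpression. The groups did not overlap, yet at -0.30 (SE 0.10) its adjusted p was 0.072. It was called without control replicate 2, at -0.38.

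**Figure D2:**
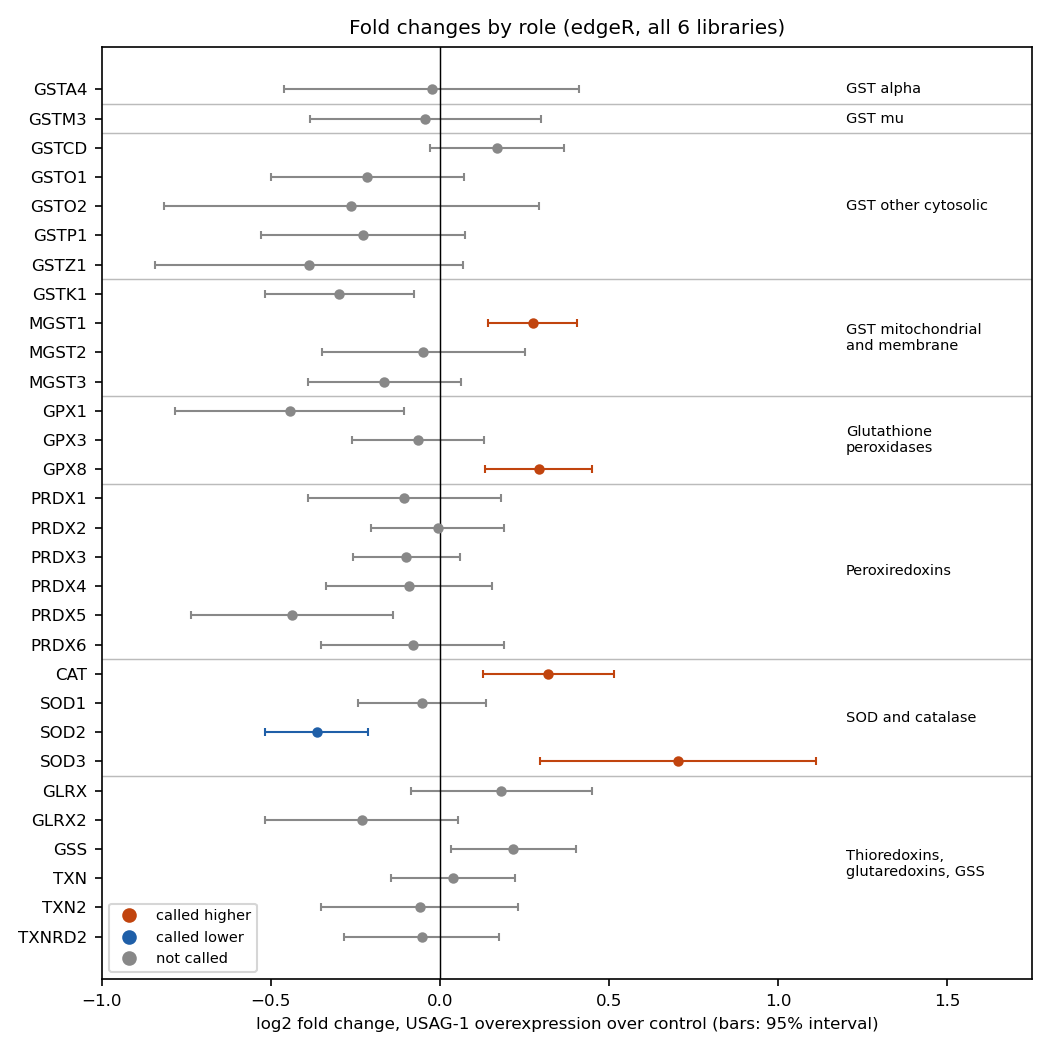
Log2 fold changes of 30 of the tested genes (USAG-1 overexpression over control, all 6 libraries) with 95% intervals, grouped by role; GSTM1 and GSTM4, with 27 counts or fewer in any library, are left out. SOD3, CAT, GPX8 and MGST1 lie to the right and SOD2 to the left of 0, while all 6 peroxiredoxins lie left of 0 with no call.

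Glutathione peroxidases reduce hydrogen and lipid peroxides. GPX8 (ENSG00000164294, plus strand, chr5:55160167-55167297), which acts in the lumen of the endoplasmic reticulum on peroxide left by oxidative protein folding, had 43.8, 42.0 and 38.6 CPM in control and 49.2, 50.75 and 52.3 CPM in overexpression. It was unusual in that control replicate 3 was its lowest library. GPX8 rose by 0.29 (SE 0.07, edgeR adjusted p = 0.0255), with a 95% interval of 9.67% to 36.6% higher, and by 0.25 without control replicate 3 (adjusted p = 0.00828).

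GPX1 (ENSG00000233276, minus strand, chr3:49357176-49358353), the selenoenzyme of cytosol and mitochondria, had 167, 180 and 258 CPM in control and 145, 149 and 150 CPM in overexpression. The groups did not overlap, with control replicate 3 far above the rest, and at -0.44 (SE 0.15) the edgeR adjusted p was 0.0792. Leaving out control replicate 3 made the value smaller and the spread much smaller, and GPX1 was then called, at -0.22 (SE 0.04, adjusted p = 0.00632). It was also called without control replicate 1, at -0.56. Its retrocopy GPX1P1, whose reads could be confused with those of GPX1, had 323 to 758 counts in a library and was not called (-0.48, adjusted p = 0.271). GPX3, the secreted plasma peroxidase that the proximal tubule makes, had 42.4 to 50.2 CPM in control and 40.4 to 46.0 CPM in overexpression (-0.06, 95% interval from -0.26 to 0.13). For comparison, GPX4, the phospholipid peroxidase that the selection leaves out, had 136, 141 and 188 CPM in control and 125, 134 and 142 CPM in overexpression and was not called (-0.21, SE 0.12, adjusted p = 0.289).

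The remaining peroxidases were barely read. GPX7, the other peroxidase of the endoplasmic reticulum, had 8, 10 and 4 counts in control and 0 in each overexpression library. Its control mean of 0.163 CPM was at least 2.40-fold higher than the level that 3 counts in each overexpression library would give. Without the filter on low counts it was not called (edgeR adjusted p = 0.0859), although its unadjusted p was under 0.05 in both edgeR and DESeq2. DESeq2's own filter left it without an adjusted p. GPX2, the gastrointestinal form, had 0, 7 and 4 counts in control and 12, 7 and 14 in overexpression, with an adjusted p of 0.438 without the filter, and GPX5, an epididymal form, had at most 8 counts. GPX6 had no count in any library, as had the transferases GSTA2 and GSTM5, while GSTM2 had at most 19 and GSTT2 at most 4. Of these 8 genes, the 5 with any count were fitted without the filter, and none was called.

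Peroxiredoxins, the most abundant scavengers of hydrogen peroxide in most cells, held 1801 ± 313 CPM in control and 1671 ± 53.2 CPM in overexpression (SD, n = 3), and none of the 6 was called by edgeR or limma-voom. PRDX5 had an unadjusted p under 0.05 and was called by DESeq2, the 1 such gene of the group. Over all genes tested, edgeR called 15.9%, and 6 genes are too few to set no call apart from that share. All 6 fold changes were below 0, from -0.44 to -0.01, but 4 of the 6 crossed to above 0 without control replicate 3. PRDX1 (ENSG00000117450), a cytosolic enzyme and the most deeply read of all 40 genes, had 845, 843 and 1180 CPM in control and 855, 905 and 904 CPM in overexpression. Control replicates 1 and 2 lay below all 3 overexpression libraries and control replicate 3 above them, so the fold change was -0.11 (95% interval from -0.39 to 0.18) with it and 0.08 (adjusted p = 0.115) without it. PRDX2 and PRDX6 of the cytosol and PRDX4 of the secretory pathway followed the same course, from -0.01, -0.08 and -0.09 to 0.10, 0.09 and 0.06. PRDX2 also overlaps HOOK2 on the same strand, which held 14.5% as many counts.

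The 2 peroxiredoxins of mitochondria stayed below 0 in each of these fits. PRDX3, of the matrix, had 234 to 268 CPM in control and 220 to 240 CPM in overexpression, at -0.10 (95% interval from -0.26 to 0.06). PRDX5 (ENSG00000126432, plus strand, chr11:64318121-64321811), found in mitochondria, peroxisomes and cytosol, had 72.7, 75.3 and 102 CPM in control and 58.5, 59.2 and 66.7 CPM in overexpression. The groups did not overlap, and at -0.44 (SE 0.13) the edgeR adjusted p was 0.0553, just short of the threshold. It was called without control replicate 1 (-0.53) or control replicate 3 (-0.26, adjusted p = 0.017) and in 6 of 14 alternatives in all, with values below 0 in all 14.

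**Figure D3:**
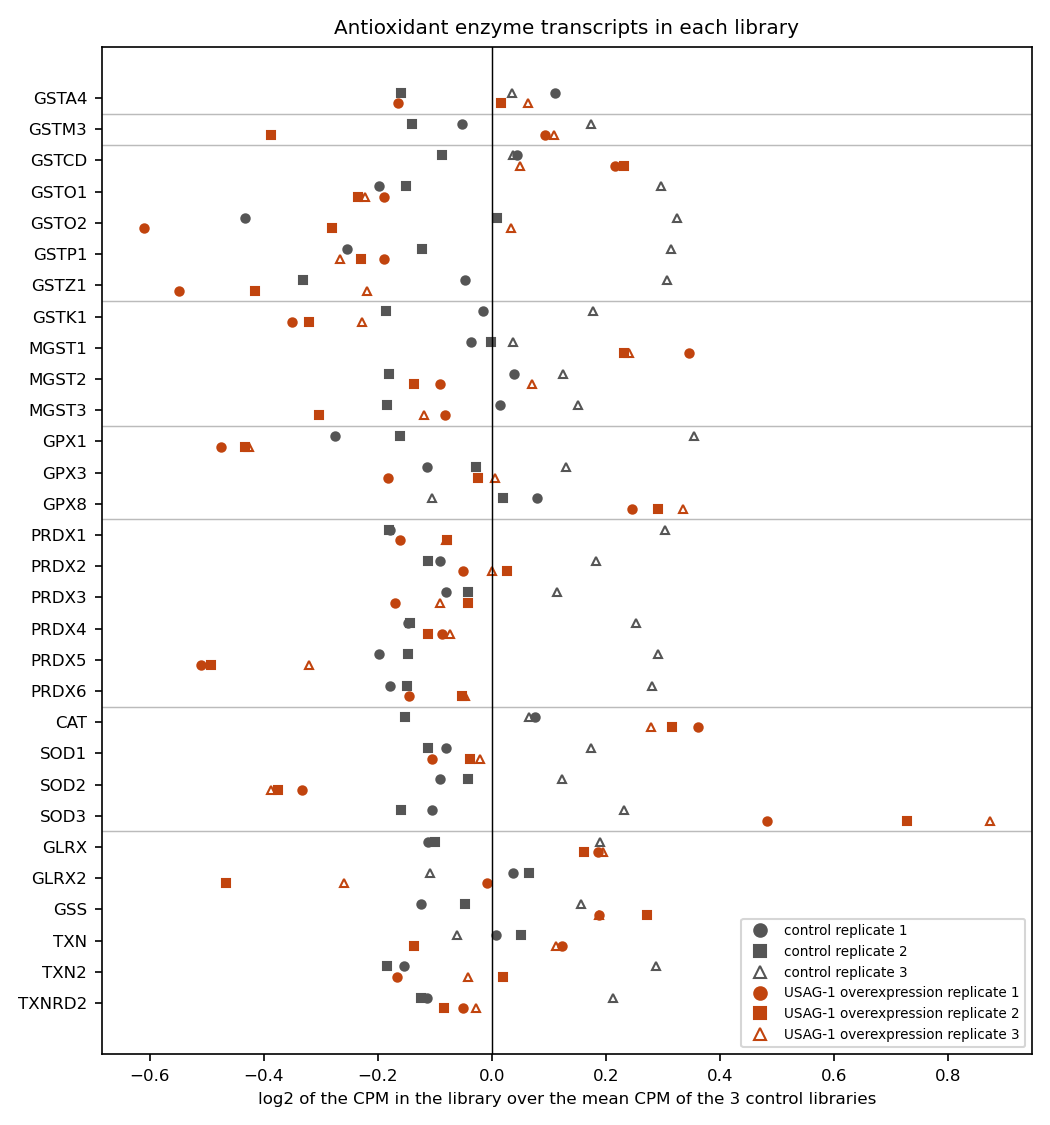
Each point is 1 library, placed at the log2 of its CPM over the mean CPM of the 3 control libraries, for 30 of the tested genes ordered by role; gray marks control and red-brown USAG-1 overexpression, and open triangles are replicate 3. Gray open triangles (control replicate 3) lie right of the other control points in most rows, among them all 6 peroxiredoxins, GSTP1 and GPX1, and red-brown points stand clear of all gray points in SOD3, CAT, MGST1, GPX8 and SOD2.

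Thioredoxins and glutaredoxins pass electrons to these enzymes. None of the 6 genes of this group was called by edgeR, DESeq2 or limma-voom, while 1, GSS, had an unadjusted edgeR p under 0.05. Over all genes tested these edgeR shares were 15.9% and 30.5%, and 6 genes are too few to set no call apart from the first. TXN, the cytosolic thioredoxin with the most reads of the group, had 165, 170 and 157 CPM in control and 178, 149 and 177 CPM in overexpression. Its groups overlapped at 0.04 (95% interval from -0.14 to 0.22). Mitochondrial TXN2 and its reductase TXNRD2 were at -0.06 and -0.05 with all libraries and at 0.11 and 0.07 without control replicate 3. GLRX, a cytosolic glutaredoxin, was at 0.18 and its mitochondrial relative GLRX2 at -0.23, both with intervals that held 0. Each of TXNRD2, GLRX and GLRX2 overlaps a gene on the opposite strand with more counts than its own. GSS, which joins glycine to complete glutathione, had 70.3, 74.2 and 85.3 CPM in control and 87.3, 92.5 and 87.2 CPM in overexpression. Its groups did not overlap, at 0.22 (SE 0.08, edgeR adjusted p = 0.11), and it was called without control replicate 3, at 0.31 (adjusted p = 0.00173).

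Arranged by compartment, none of the 17 tested genes of the cytosol was called by edgeR or limma-voom. At an unadjusted edgeR p under 0.05 there were 2, GSS and GPX1, and DESeq2 called 1, GPX1. Of the 7 genes assigned to mitochondria (SOD2, PRDX3, PRDX5, GSTK1, GLRX2, TXN2 and TXNRD2), edgeR and limma-voom called 1, SOD2, lower. DESeq2 called 3 lower, SOD2, PRDX5 and GSTK1, and the same 3 had an unadjusted edgeR p under 0.05. Over all genes tested, edgeR called 8.95% higher and 6.91% lower, or 15.9% in either direction. DESeq2, run without edgeR's filter on low counts, called 3365 of 32480 genes (10.4%), so its share is over more genes than edgeR's 18188. The 2 shares are therefore not on the same footing. Of the genes that edgeR tested, 30.5% had an unadjusted edgeR p under 0.05. The 1 edgeR call among the 7 mitochondrial genes (14.3%) was thus near the share of all genes. All 7 fold changes were below 0, with a median of -0.23 beside -0.02 over all genes tested. That count rests partly on control replicate 3, without which 5 of 7 were below 0. Most other enzyme genes leaned the same way: with all libraries, 13 of the 17 genes of the cytosol were below 0, with a median of -0.08, and 24 of all 32. Of 4 tested genes of the secretory pathway, SOD3 and GPX8 were higher, and GPX3 and PRDX4 were not called. Each gene was placed in 1 compartment, although GPX1, PRDX5 and GSTK1 occur in several.

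The calls depended on single libraries. SOD2 was called in 4 of the 6 fits that each left out 1 library, GPX8 in 2, and MGST1, SOD3 and CAT in 1, the fit without control replicate 3. Fewer genes of any kind were called with 5 libraries, between 1137 and 1917 of all genes tested when a library other than control replicate 3 was left out, against 2884 with all 6. Without control replicate 3, 5091 (27.0%) were called, and among the enzyme genes 5 were higher (the 4 above and GSS) and 3 lower (SOD2, GPX1 and PRDX5). Their directions held throughout: SOD2, MGST1, GPX8, SOD3, CAT, PRDX5, GPX1, GSS and GSTK1 each kept their sign in all 14 alternatives. The count of signs did not hold, since 24 of 32 fold changes were below 0 with all libraries and 13 of 33 without control replicate 3.

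**Figure D4:**
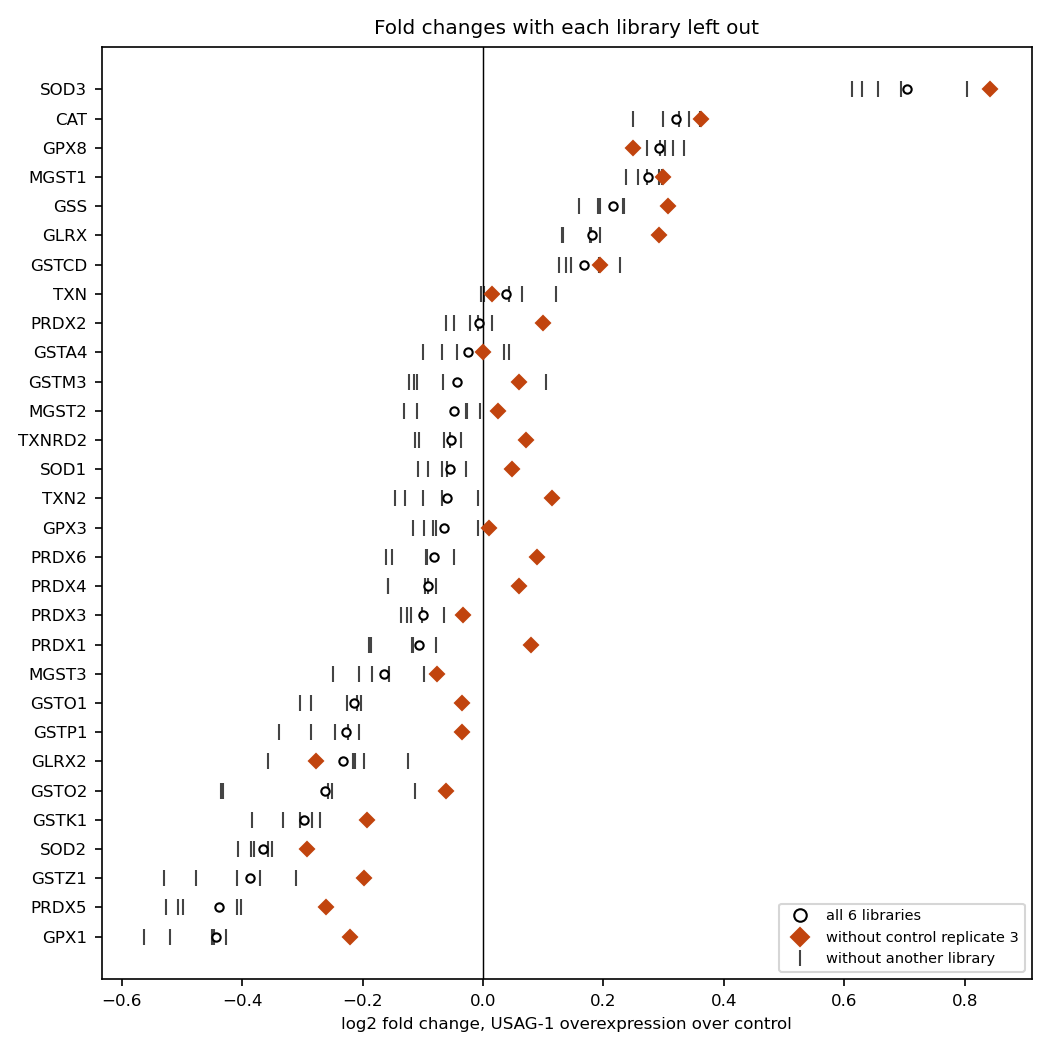
Log2 fold changes (USAG-1 overexpression over control) of the same 30 genes with all 6 libraries (open circles), without control replicate 3 (diamonds) and without each of the other 5 libraries (vertical ticks), ordered by the value with all libraries. Diamonds lie right of the circles for most genes below 0. They cross 0 for PRDX1, PRDX2, PRDX4, PRDX6, GPX3, GSTA4, GSTM3, MGST2, SOD1, TXN2 and TXNRD2. SOD2, PRDX5 and GPX1 stay left of 0 and SOD3, CAT, GPX8, MGST1 and GSS right of it in every fit shown.

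The genes around these enzymes were read from 3 further lists. The lists were chosen with earlier results of these data known, so their shares of called genes are a description and no test of enrichment. Of 55 such genes found, 47 were tested, 11 were higher and 2 lower. Glutathione turnover, the making, recycling, export and breakdown of glutathione, had 7 of 19 tested genes higher (36.8%) and none lower in edgeR, DESeq2 or limma-voom (1 lower at an unadjusted p under 0.05), with a median log2 fold change of 0.13. Over all genes tested, 8.95% were called higher and 15.9% in either direction. GSR, which regenerates reduced glutathione from its disulfide, had 81.6, 79.5 and 95.6 CPM in control and 125, 123 and 123 CPM in overexpression, a rise of 0.53 (SE 0.08, edgeR adjusted p = 0.00383). Both subunits of glutamate-cysteine ligase, the rate-limiting step of synthesis, rose. The catalytic subunit GCLC had 31.4, 32.7 and 26.6 CPM in control and 40.0, 41.8 and 42.5 CPM in overexpression (0.45, adjusted p = 0.0114), and the modifier subunit GCLM rose by 0.35 (adjusted p = 0.0172). Also higher were genes of the opposite course, the export pump ABCC1 (0.31, adjusted p = 0.00622) and 3 enzymes that degrade glutathione or its pieces: CHAC1 (1.05, adjusted p = 0.00922), GGT1 (0.55, adjusted p = 0.0208) and LAP3 (0.35, adjusted p = 0.0174). The list therefore held rises in synthesis, recycling, export and breakdown at once. GGT5, at 1.80, had an adjusted p of 0.35.

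Among thioredoxin partners, 3 of 18 tested genes were higher and none lower in edgeR and limma-voom, with a median of -0.01. The 3 are 16.7% of those tested, near the 15.9% of all genes called in either direction. DESeq2 called 4 higher and 1 lower, and 5 and 1 had an unadjusted edgeR p under 0.05. They were NXN, a nucleoredoxin (0.35, edgeR adjusted p = 0.00775), MSRB3, a methionine sulfoxide reductase (0.40, adjusted p = 0.0124), and SRXN1, the sulfiredoxin that repairs overoxidized peroxiredoxins (0.27, adjusted p = 0.0312). TXNRD1, the cytosolic thioredoxin reductase, was at -0.14 (adjusted p = 0.225). Of 10 tested peroxide sources, 1 was higher and 2 were lower, against 8.95% and 6.91% of all genes. AOX1, an aldehyde oxidase, rose by 0.50 (adjusted p = 0.0218). CYBA, the p22phox subunit shared by several NADPH oxidases, had 190, 190 and 200 CPM in control and 137, 134 and 146 CPM in overexpression and fell by 0.47 (adjusted p = 0.00195). ERO1A, the oxidase that drives disulfide formation in the endoplasmic reticulum, fell by 0.27 (adjusted p = 0.0241). Over the 3 lists, 13 genes were called with all 6 libraries. Without control replicates 1, 2 and 3 in turn there were 12, 8 and 18, and without overexpression replicates 1, 2 and 3 there were 6, 4 and 5. All genes called moved as well, to 1917, 1636 and 5091 and to 1306, 1137 and 1347 in the same order, against 2884.

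**Figure D5:**
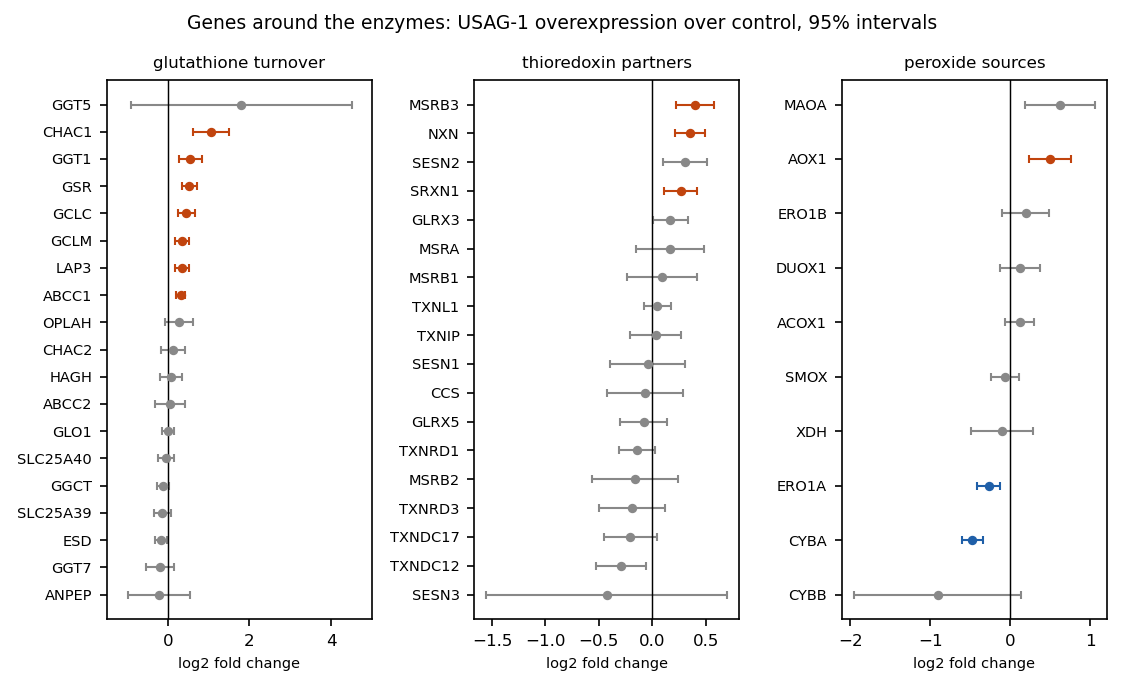
Log2 fold changes (USAG-1 overexpression over control, all 6 libraries) with 95% intervals for the tested genes of glutathione turnover (19), thioredoxin partners (18) and peroxide sources (10); red-brown marks called higher, blue called lower and gray not called, and the 3 horizontal scales differ. In the first panel 7 genes are called and all lie right of 0, in the second 3, and in the third AOX1 lies right and CYBA and ERO1A left.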

How the data were processed

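HK-2 cells were analysed in 3 control and 3 USAG-1-overexpressing libraries, grouped by their titles. The authors deposited whole-number counts per gene, with gene positions; the file's name speaks of FPKM, but its values are whole and unnormalized. The submitters' processing notes name hg38, cutadapt 1.9 and FastQC; the aligner, counter and annotation are not given in the sources used here. In every library more genes had a count of 4 than of 3 (1213 to 1448 against 746 to 814), and the cause was not tested. The members were found by symbol, and the members, their roles, the pathway lists and the marker lists were chosen with earlier results of these data known. 

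The counts were analysed in edgeR 4.0.16 (R 4.3.3) with filterByExpr, TMM factors, glmQLFit and glmQLFTest, without a replicate block. An SE is the log2 fold change over the square root of F, and intervals are 95%. The study's methods name DESeq2; DESeq2 1.42.0 and limma 3.58.1 (voom) were alternatives, with other scalings, filters, a replicate block, an adjusted p under 0.1 and each library left out. Values per library are given for called members and for the member with the most reads in each role, and other per-library values were chosen after the results were seen; from the pathway lists the called genes are named, and GGT5 and TXNRD1 were chosen after their values were seen. Levels were not compared between genes, since no transcript lengths of the build were used. No sequences are printed, since the reference given was of mouse.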

Additional observations from a re-analysis of the deposited data

How the results depend on the processing

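Of the enzyme genes, 4 were called higher and 1 lower with the settings used above. The number higher was 2 with no filter on low counts and 2 with the replicate block (MGST1 and SOD3). The number lower was 2 with library sizes alone, 2 with at least 10 counts in every library and 2 with the replicate block (PRDX5 and SOD2), and 4 with DESeq2's Wald test and at an adjusted p under 0.1 (GPX1, GSTK1, PRDX5 and SOD2 in both). The share of all genes called moved too, and so did the number of genes it is taken over. That number was 32507 with no filter, 32480 with DESeq2, 15906 with at least 10 counts in every library and 18188 in the other settings given here. It was 15.9% with the settings used above, 6.26% with no filter, 13.1% with the block and 16.1% with library sizes alone. With at least 10 counts in every library it was 19%, with DESeq2 10.4%, and at an adjusted p under 0.1 it was 23.2%. Leaving out 1 library gave 0 to 5 higher, 0 to 3 lower, 4 to 18 pathway genes called and 1137 to 5091 of all genes called. No pairing by replicate number was detected. The deviations of same-numbered libraries correlated at 0.07, -0.05 and 0.04, and those of differently numbered libraries at -0.14 to 0.11. With 3 libraries a group, these values cannot show that pairing was absent. With the block 2381 of all genes were called in place of 2884. No filter left 2034 and DESeq2 called 3365.

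Genes without a call changed sign. PRDX2 was at 0.012 with library sizes alone. With 1 library left out, the log2 fold change ranged from -0.12 to 0.0105 for GPX3, -0.10 to 0.0424 for GSTA4, -0.12 to 0.10 for GSTM3, -0.13 to 0.0244 for MGST2, -0.19 to 0.0797 for PRDX1, -0.0607 to 0.0999 for PRDX2, -0.16 to 0.0605 for PRDX4, -0.16 to 0.089 for PRDX6, -0.11 to 0.0478 for SOD1, -0.0041 to 0.12 for TXN, -0.15 to 0.11 for TXN2 and -0.11 to 0.0713 for TXNRD2. The median of the members was 0.02 without control replicate 3 and -0.13 to -0.05 in the other settings. The cause of these changes was not tested. With 3 libraries a group, intervals for genes of a few CPM, such as SOD3 or GSTA4, were wide. Of the 8 members below the filter, 5 had counts and were fitted without it, with adjusted p from 0.0859 (GPX7) to 0.948.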
